A study of Mus musculus with 16 samples.

Results

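The antioxidant response was followed through 8 genes in cells of a mouse alveolar rhabdomyosarcoma (aRMS), a muscle-lineage tumor driven by the fusion transcription factor Pax3:Foxo1a. Members were the probes whose platform gene symbol was Hmox1, Nqo1, Gclc, Gclm, Txnrd1, Srxn1, Nfe2l2 or Keap1. All 8 had probes, 15 in number, out of 16593 genes named on the array, and all 8 were among the 9306 genes measured over the 16 arrays.

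Total RNA of a tumor culture from the Myf6Cre,Pax3:Foxo1a,p53 conditional mouse was hybridised to Illumina MouseRef-8 v2 arrays, which read many transcripts at once with short bead-bound probes. In that mouse, Cre under the Myf6 promoter switches on the fusion in the muscle lineage and p53 is deleted, so control and knockdown cells shared the same tumor genotype. Cells were grown in DMEM with fetal bovine serum and transfected with 0.2% lipofectamine2000 and either 10 nM siYFP, here called knockdown, or a control siRNA, here called control. The fusion and eYFP lie on the same mRNA, which is how an siRNA to eYFP reaches Pax3:Foxo1a. Cells were then sorted by DNA content into 2N (G1/G0), 3N (S) and 4N (G2/M). There were 3 arrays each of control 2N, control 4N, knockdown 2N and knockdown 4N cells, and 2 arrays each of control 3N and knockdown 3N cells, from 3 numbered experiments, of which experiments 1 and 2 held 3N cells. The mouse lines behind the model are on a mixed genetic background that includes B6. Mouse age and the hours from transfection to sorting are not stated for the arrays, and for the control siRNA the methods give a range of doses rather than the dose used here. A single siRNA sequence was used, so a response to the duplex and a response to loss of Pax3:Foxo1a cannot be told apart. Nothing in the labels says that the experiments came from separate tumors, so p-values measure the spread between experiments on the culture.

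Nfe2l2 encodes Nrf2, a transcription factor that is held at low levels by Keap1, a sensor protein that hands it to a ubiquitin ligase. When oxidants or electrophiles modify Keap1, Nrf2 accumulates, pairs with small Maf proteins and binds antioxidant response elements beside its target genes. Among these are Hmox1 (heme oxygenase), Nqo1 (a quinone reductase), Gclc and Gclm (both subunits of the enzyme that makes the glutathione precursor), Txnrd1 (thioredoxin reductase) and Srxn1 (sulfiredoxin, which repairs oxidised peroxiredoxins). Hmox1 is also repressed by Bach1, a heme-sensing factor that competes for the same elements.

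The elements that give the group its name were looked for in promoter windows from RefSeq (build GRCm38.p6), which run from 250 bases before to 50 bases after each gene start. Symbols matched 6 of the 8 genes, with 8 windows, and Hmox1 and Gclc are named here without a sequence. Searched on both strands were the antioxidant response element core TGACNNNGC and the AP-1 site TGANTCA, and no match of these motifs overlapped a match of the other. The core was searched with C after TGA, and a form with G in that place was not searched. The Srxn1 AP-1 site at -45, with the bases that follow it, has that form (TGAGTCAgc). The element core was found in 4071 of all 32851 windows (12.4%) and the AP-1 site in 2565 (7.81%). Among the members, 4 had an element core in a window (Nfe2l2, Gclm, Srxn1 and Txnrd1), and Srxn1 had both AP-1 sites that were found. The stretches around the matches of both motifs are shown. The element core, found in 12.4% of all windows, does not by itself mark an Nrf2 target. Capitals mark the match, positions are negative before the gene start and positive after it, all stretches read 5′ to 3′ on the strand of the gene, and an element core on the opposite strand therefore reads as its reverse complement.
Nfe2l2, element core, first base at -240 from the gene start, chr2:75704885-75704913, minus strand: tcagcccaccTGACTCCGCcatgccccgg
Gclm, element core on the opposite strand, at -134, chr3:122245413-122245441, plus strand: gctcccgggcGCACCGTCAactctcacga
Srxn1, element core on the opposite strand, at 29, chr2:152105542-152105570, plus strand: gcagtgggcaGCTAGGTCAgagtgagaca
Txnrd1, second of its 3 windows, element core on the opposite strand, at -92, chr10:82859104-82859132, plus strand: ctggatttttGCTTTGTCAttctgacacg
Srxn1, AP-1 site, at -102, chr2:152105411-152105439, plus strand: ctcggagggccTGAGTCAccacgctgtgc
Srxn1, AP-1 site, at -45, chr2:152105468-152105496, plus strand: caaattcacccTGAGTCAgcggccgggcg
The windows of Nqo1 (chr8:107403156-107403455) and Keap1 (chr9:21239283-21239582) held neither motif. A match is a description of letters and does not show binding, and elements farther from a gene start lie outside these windows.

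Arrays were alike in quality, with 12535 to 13135 probes detected per array and correlations of 0.988 to 0.994 between replicates. Foxo1, the 3′ partner of the fusion, was lower on each knockdown array than on the control array of the same experiment and DNA content (8 of 8 pairs), with log2 changes of -0.70 in 4N, -0.85 in 2N and -0.89 in 3N cells (limma adjusted p = 0.00503, 0.00142 and 0.00283). The position of its probe is not given, so native Foxo1 may be read as well. Here and below, the 8 pairs come from 3 experiments and are not 8 independent replicates. Of the muscle lineage markers with a probe, 4 of 8 were measured (Myog, Myf5, Des and Chrna1), while Myod1 and Pax7 were detected on 0 of the 16 arrays. Of these 4, Des rose by 0.61 and 0.52 on the log2 scale in 4N and 2N cells (adjusted p = 0.0283 and 0.0496) and Chrna1 fell by 0.53 and 0.65 (0.0300 and 0.0101), with 0 calls in 3N cells. Of all genes, 9.83% were called higher and 9.27% lower in 4N cells, and 10.9% and 10.4% in 2N cells. With 4 markers, 1 call in a direction is no result about the markers as a set. A part of Des and Chrna1 in the results on the antioxidant response genes was not tested. Markers of endothelial cells (6 with a probe) and red cells (4) were detected on 0 arrays. Of 8 leukocyte and macrophage markers Cd14 was detected on 9 arrays and Cd74 on 1, and Ptprc, Adgre1, Itgam, Lyz2, Tyrobp and Fcgr3 on 0. Of 6 housekeeping genes measured, 0 passed the test in limma in any knockdown comparison, with 1, 0 and 1 at an unadjusted p under 0.05 in 4N, 2N and 3N cells.

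After knockdown Hmox1 rose about 2-fold in 2N, 3N and 4N cells alike, while 0 of the 5 other target genes among the members passed the test in that direction. Keap1 fell 1.41-fold in 4N cells and 1.34-fold in 3N cells, and Nfe2l2 fell 1.41-fold in 4N cells. The calls of Keap1 in 3N cells and of Nfe2l2 were close to the threshold (limma adjusted p = 0.0488 and 0.0392). Neither held in most fits with 1 array left out. The 5 other target genes, Nqo1, Srxn1, Gclm, Gclc and Txnrd1, passed the test in none of the 3 DNA content classes as the data were first processed. All log2 changes below are differences between normalized log2 signals, knockdown minus control, with p-values from limma adjusted over all genes tested by the Benjamini-Hochberg method and a threshold of 0.05.

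In 4N cells 1 of the 8 genes was higher and 2 were lower in the knockdown, where 9.83% of the 9146 genes tested were called higher and 9.27% lower. In 2N cells 1 gene was higher and 0 were lower, against 10.9% higher and 10.4% lower of all genes. In 3N cells 1 gene was higher and 1 lower, against 6.46% and 6.47% of 9306 genes. An unadjusted p under the threshold was reached by 3, 4 and 2 of the 8 in 4N, 2N and 3N cells, and by 31.7%, 33.5% and 26.4% of all genes. With 8 genes, counts of 0 to 2 in a direction lie near these shares and are no result about the group as a whole. Their median log2 change was -0.20 in 4N, -0.20 in 2N and -0.24 in 3N cells, where the median of all genes was -0.01 in each.

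**Figure D1:**
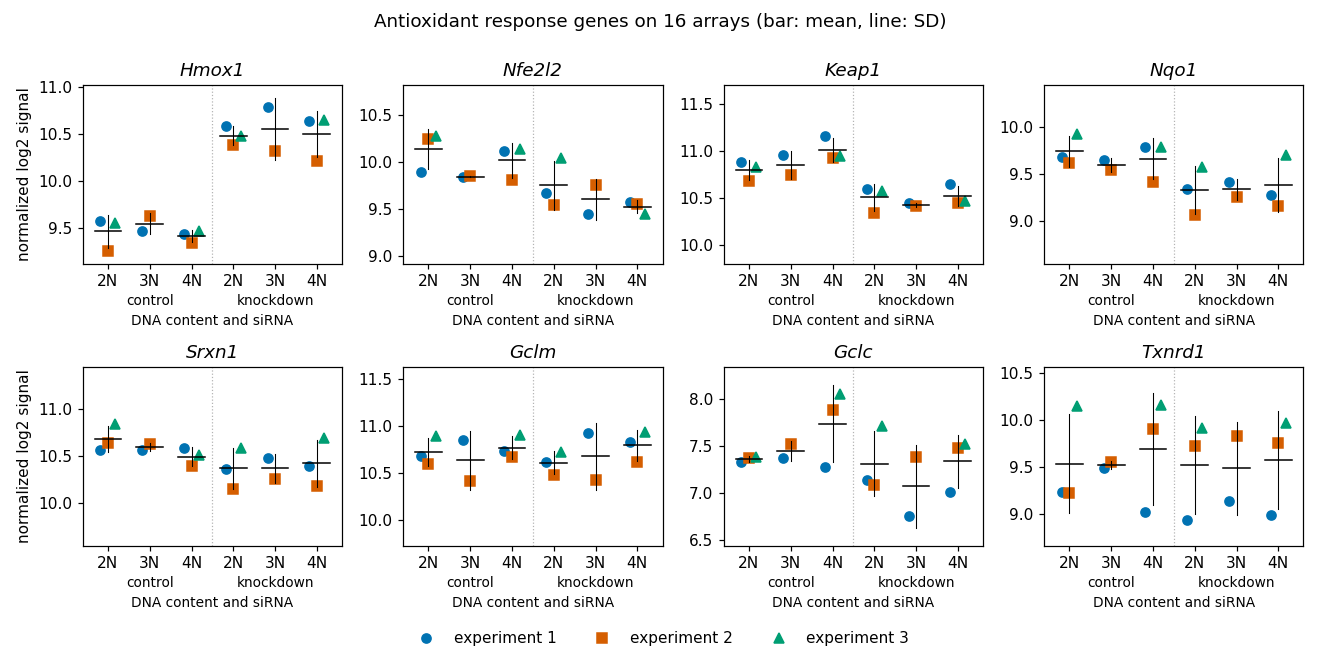
Normalized log2 signal (y axis) of the 8 genes in each of the 6 groups (x axis), 1 point per array with the experiment given by colour and shape; the horizontal bar is the group mean and the vertical line the SD. Hmox1 lies between 9.26 and 9.62 on the 8 control arrays and between 10.21 and 10.79 on the 8 knockdown arrays, Keap1 is lower in the knockdown, and Txnrd1 spreads by experiment.

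Among the regulators, Nfe2l2 had log2 signals of 10.12, 9.81 and 10.14 in control 4N cells of experiments 1, 2 and 3, and of 9.57, 9.56 and 9.45 in knockdown 4N cells. These groups did not overlap, and the 3 knockdown values lay closer together than the 3 control values. The log2 change was -0.49 (SE 0.15, adjusted p = 0.0392). The call was close to the threshold: it was lost on leaving out any array but that of control 4N experiment 2, with adjusted p from 0.0771 to 0.125 for the other 5 (0.118 without control 4N experiment 1, 0.125 without control 4N experiment 3, and 0.0771, 0.0836 and 0.112 without knockdown 4N experiments 1, 2 and 3), and it was lost without a filter on detection (0.0561).

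In 2N cells Nfe2l2 had log2 signals of 9.90, 10.25 and 10.28 in the control and 9.67, 9.55 and 10.05 in the knockdown. The highest knockdown value, from experiment 3, lay above the lowest control value, from experiment 1. The log2 change of -0.39 (SE 0.15) did not pass (adjusted p = 0.0919), but did without control 2N experiment 1 (0.0473) or knockdown 2N experiment 3 (0.0283). In 3N cells the values were 9.84 and 9.85 in the control and 9.45 and 9.76 in the knockdown, a log2 change of -0.24 (SE 0.18, adjusted p = 0.455). Within each experiment and DNA content the knockdown array was the lower in 8 of 8 pairs, by between 0.09 and 0.70 on the log2 scale.

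Keap1 had log2 signals of 11.17, 10.93 and 10.95 in control 4N cells and 10.65, 10.45 and 10.47 in knockdown 4N cells. The differences within the 3 experiments were nearly equal (-0.52, -0.49 and -0.48). The log2 change was -0.49 (SE 0.11, adjusted p = 0.00910), and it passed on leaving out each array in turn. The control values in 2N cells were 10.89, 10.68 and 10.83 and the knockdown values 10.60, 10.35 and 10.58, which do not overlap either. The log2 change there was -0.29 (SE 0.11) and did not pass (adjusted p = 0.0853), whereas with the experiments as a replicate block it did (adjusted p = 0.0217). In 3N cells the control values were 10.96 and 10.75 and the knockdown values 10.45 and 10.41. This change of -0.43 (SE 0.13) was just past the threshold (adjusted p = 0.0488) and was lost on leaving out any of the 4 arrays of 3N cells (0.253 and 0.0614 without control experiments 1 and 2, 0.144 and 0.205 without knockdown experiments 1 and 2). Over all 16 arrays the lowest of 8 control values, 10.68, lay above the highest of 8 knockdown values, 10.65, a gap far smaller than the spread within a group.

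Keap1 has 4 probes, and the brightest was used above. In 4N cells the log2 changes of the other 3 were -0.40, -0.29 and -0.25, with adjusted p of 0.0641, 0.169 and 0.266 over all detected probes, against 0.0115 for the brightest. All 4 were negative in each DNA content class, from -0.25 to -0.50. In 4N cells the probes thus differed in whether they passed and not in sign. Tested over all detected probes, no Keap1 probe passed in 3N cells (lowest adjusted p 0.0564, and 0.0590 for the brightest). The same held in 2N cells (lowest 0.0980). The second Nfe2l2 probe was detected on 0 arrays and gave no check of the first.

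**Figure D2:**
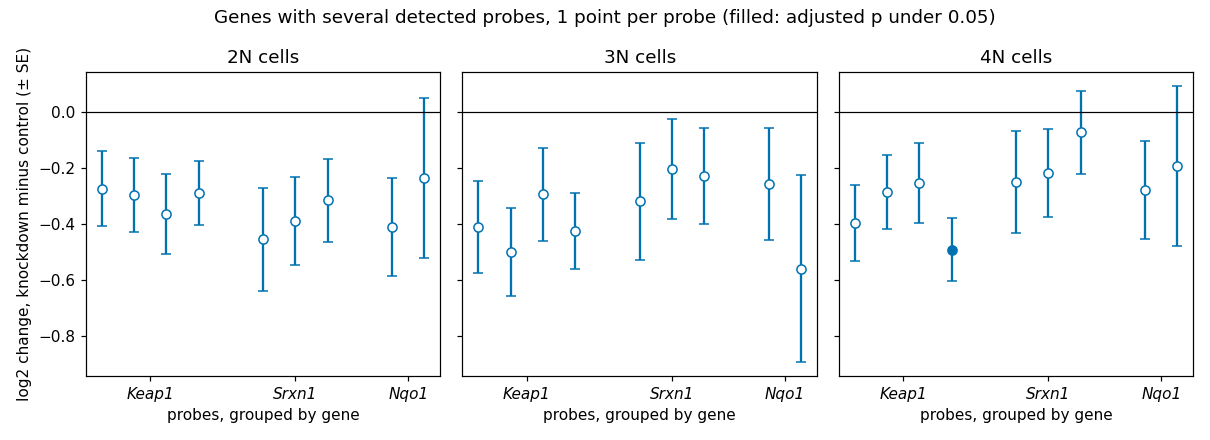
Log2 change, knockdown minus control (y axis, with SE), of each detected probe of the 3 genes with more than 1 such probe, in 2N, 3N and 4N cells; filled points passed an adjusted p of 0.05 over all detected probes. All points lie below 0, from -0.07 to -0.56, and 1 Keap1 probe in 4N cells is filled.

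Hmox1 encodes heme oxygenase-1, the inducible enzyme that opens the heme ring to biliverdin, carbon monoxide and iron. On the arrays as deposited, before any normalization, its signal was 858, 678 and 827 in control 4N cells of experiments 1, 2 and 3 and 1716, 1486 and 1434 in knockdown 4N cells. In 2N cells the deposited signal was 1102, 638 and 881 in the control and 1664, 1408 and 1209 in the knockdown. In 3N cells it was 931 and 846 against 1878 and 1313. Each knockdown array was thus brighter than each control array, and the probe was detected on all 16.

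After normalization the log2 signal in 4N cells was 9.43, 9.34 and 9.47 in the control and 10.63, 10.21 and 10.64 in the knockdown. The log2 change was 1.08 (SE 0.13), a 2.12-fold rise with an adjusted p of 0.000182. In 2N cells the values were 9.58, 9.26 and 9.55 against 10.59, 10.38 and 10.48, a log2 change of 1.02 (SE 0.13), or 2.03-fold (adjusted p = 0.000282). In 3N cells they were 9.47 and 9.62 against 10.79 and 10.32, a log2 change of 1.01 (SE 0.18), or 2.02-fold (adjusted p = 0.00178). The rise was seen in 8 of 8 pairs of the same experiment and DNA content, the smallest being 0.70 in 3N cells of experiment 2 and the largest 1.32 in 3N cells of experiment 1. These changes stood at percentiles 97.8, 97.3 and 97.4 of the changes of all genes in 4N, 2N and 3N cells. Since each array reads a bulk of sorted cells, a larger share of cells with Hmox1 and more Hmox1 per cell cannot be told apart.

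Hmox1 levels were ordered control 4N (9.41 ± 0.07, SD, n = 3), control 2N (9.46 ± 0.18, n = 3), control 3N (9.54 ± 0.11, n = 2), knockdown 2N (10.48 ± 0.10, n = 3), knockdown 4N (10.50 ± 0.25, n = 3) and knockdown 3N (10.55 ± 0.33, n = 2). Neighbours in this order differed by less than their spread, except for the step from control 3N to knockdown 2N. The difference of the knockdown effect between 4N and 2N cells was 0.06 on the log2 scale, which did not pass (95% interval -0.35 to 0.47, adjusted p = 1.00).

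**Figure D3:**
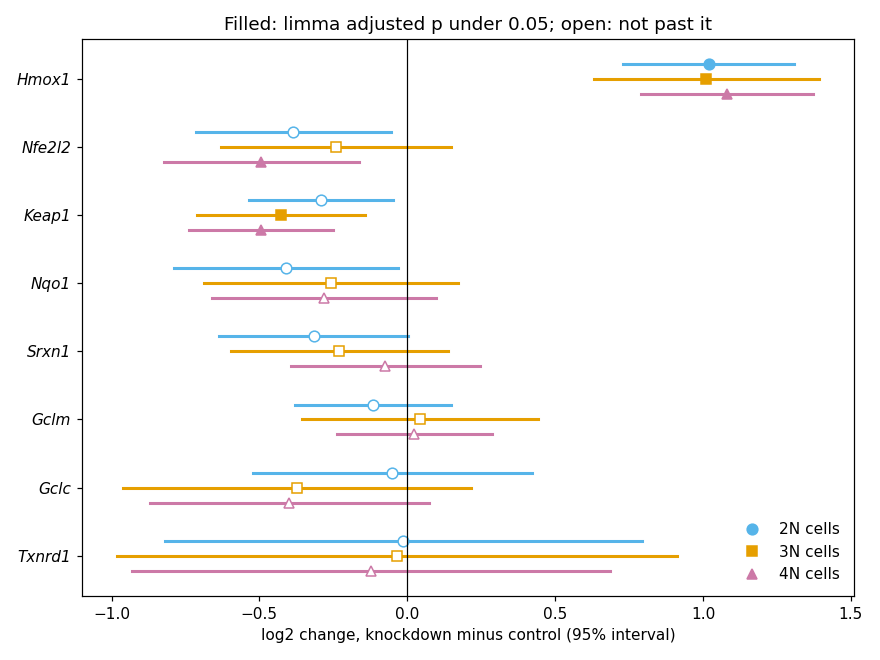
Log2 change, knockdown minus control (x axis), with its 95% interval from limma, for the 8 genes (y axis) in 2N, 3N and 4N cells; filled points passed an adjusted p of 0.05. Hmox1 stands near 1 in each class, Keap1 and Nfe2l2 are below 0 with filled points in 4N cells, and the intervals of Txnrd1 are the widest.

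Nqo1, which reduces quinones to hydroquinones, had log2 signals of 9.79, 9.41 and 9.79 in control 4N cells and 9.28, 9.16 and 9.70 in knockdown 4N cells. The change was -0.28 (95% interval -0.66 to 0.10, adjusted p = 0.304). In 2N cells the values were 9.68, 9.61 and 9.93 against 9.34, 9.07 and 9.58, a log2 change of -0.41 (SE 0.17, adjusted p = 0.118). Here all 3 knockdown values lay below the control values, and the call appeared with the replicate block (adjusted p = 0.0106). In 3N cells the values were 9.65 and 9.54 against 9.42 and 9.26 (log2 change -0.26, adjusted p = 0.474). On this probe Nqo1 was the lower on the knockdown array in 8 of 8 pairs, by 0.08 to 0.55 on the log2 scale. A dimmer Nqo1 probe, also detected on 16 arrays, gave log2 changes of -0.19, -0.24 and -0.56 in 4N, 2N and 3N cells, none past the threshold. In 2N cells of experiment 3 the dimmer probe was higher in the knockdown (6.98 against 6.79).

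Srxn1 had log2 signals of 10.58, 10.39 and 10.51 in control 4N cells and 10.39, 10.19 and 10.69 in knockdown 4N cells, where experiment 3 ran the other way. The log2 change was -0.07 (95% interval -0.39 to 0.24, adjusted p = 0.786). The values in 2N cells were 10.57, 10.64 and 10.84 against 10.37, 10.15 and 10.59, a log2 change of -0.32 (SE 0.15, adjusted p = 0.151, and 0.0434 with the replicate block). In 3N cells they were 10.57 and 10.63 against 10.48 and 10.26 (log2 change -0.23, adjusted p = 0.451). The 3 Srxn1 probes gave log2 changes of -0.25, -0.22 and -0.07 in 4N and -0.46, -0.39 and -0.32 in 2N cells, none past the threshold.

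Nqo1 and Srxn1 also moved together from array to array. Both were highest in experiment 3 and lowest in experiment 2 when the 4 groups of 2N and 4N cells were averaged (Nqo1 9.52, 9.32 and 9.75, Srxn1 10.48, 10.34 and 10.66 in experiments 1, 2 and 3). Their correlation was 0.92 over the 16 arrays, 0.69 over the 8 control arrays and 0.98 over the 8 knockdown arrays. This is a description: the arrays share experiments and siRNA, and no p is given.

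Gclm, the modifier subunit of glutamate-cysteine ligase, had log2 signals of 10.73, 10.67 and 10.91 in control 4N cells and 10.83, 10.62 and 10.94 in knockdown 4N cells. The log2 change was 0.02 (95% interval -0.24 to 0.29), -0.12 in 2N (-0.38 to 0.15) and 0.04 in 3N cells (-0.36 to 0.44). In 2N cells the values were 10.68, 10.60 and 10.89 against 10.62, 10.48 and 10.72, and in 3N cells 10.85 and 10.41 against 10.93 and 10.42. Gclm was higher on the knockdown array in 4 of 8 pairs and lower in the other 4.

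Gclc, the catalytic subunit, had log2 signals of 7.27, 7.88 and 8.05 in control 4N cells and 7.01, 7.48 and 7.52 in knockdown 4N cells. The log2 change was -0.40 (95% interval -0.87 to 0.07, adjusted p = 0.237). The control values of 2N cells were close together (7.33, 7.37 and 7.38) and the knockdown values were not (7.14, 7.08 and 7.71), with a log2 change of -0.05 (-0.52 to 0.42). In 3N cells they were 7.36 and 7.52 against 6.75 and 7.38 (log2 change -0.37, -0.96 to 0.22). The groups overlapped in each class.

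Txnrd1, cytosolic thioredoxin reductase, had log2 signals of 9.02, 9.91 and 10.15 in control 4N cells of experiments 1, 2 and 3 and 8.98, 9.76 and 9.97 in knockdown 4N cells. In 2N cells they were 9.24, 9.22 and 10.14 against 8.93, 9.72 and 9.91, and in 3N cells 9.49 and 9.55 against 9.13 and 9.83. The log2 changes were -0.12, -0.01 and -0.04 in 4N, 2N and 3N cells, with a 95% interval in 4N cells from -0.93 to 0.68. The spread followed the experiment. Averaged over the 4 groups of 2N and 4N cells, Txnrd1 stood at 9.04, 9.65 and 10.04 in experiments 1, 2 and 3, a range of 1.00, whereas the 4 group means spanned 0.17. With the replicate block its SE in 4N cells was 0.16 in place of 0.37, and the adjusted p was 0.631. Gclc shared this order of experiments (7.19, 7.45 and 7.66), and its correlation with Txnrd1 was 0.70 over the 16 arrays, again as a description.

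With respect to the element core shown above, the 4 genes with a match had log2 changes from -0.49 to 0.02 in 4N cells, and Nqo1 and Keap1, without a match, had -0.28 and -0.49. These ranges overlap.

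DNA content was compared within each siRNA, which asks whether the genes differ between G1/G0, S and G2/M. None of the 8 passed limma's test in any of these comparisons. Without a replicate block, 0 of 8 had an unadjusted p under the threshold in each. Of all genes, 18.0% and 18.7% did so from 2N to 4N in control and knockdown cells. The shares were 17.3% and 18.8% from 2N to 3N, and 11.3% and 10.4% from 3N to 4N. For 8 genes a count of 0 lies near these shares and is no result about the group. From 2N to 4N the log2 changes ran from -0.19 (Srxn1) to 0.38 (Gclc) in control cells, where 4.80% of all genes were called, and from -0.23 (Nfe2l2) to 0.19 (Gclm) in knockdown cells, where 5.34% were called. These limits moved by over 1.5 times on leaving out 1 array. In control cells the lower was -0.11 without control 2N experiment 3, and the upper was 0.61 without control 4N experiment 1 and 0.25 without control 4N experiment 3. In knockdown cells the lower was -0.08 without knockdown 2N experiment 3 and -0.15 with median scaling, and the upper was 0.34 and 0.11 without knockdown 4N experiments 1 and 3. From 2N to 3N 0 of 8 passed where 4.81% of all genes were called in the control and 6.10% in the knockdown, and from 3N to 4N 0 of 8 where 0.763% and 0.978% were called. Since 3N cells came from experiments 1 and 2, the 2N and 4N means in these comparisons also hold experiment 3, and with the replicate block 0 of 8 passed as well. Txnrd1, whose level followed the experiment, had a log2 change from 2N to 3N of -0.02 in control cells and 0.22 with the block. Without the block the lowest adjusted p in limma was 0.348, for Keap1 from 2N to 4N in control cells, whose groups of 3 did not overlap. With the block the lowest was 0.137, for the same gene and comparison.

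The interaction test asked whether the knockdown effect differed between 4N and 2N cells. It called 0% of the 9146 genes in limma, with 293 at an unadjusted p under the threshold, and 0 of the 8 members, with 0 at that level. The members' differences ran from -0.35 (Gclc) to 0.24 (Srxn1) on the log2 scale. The lower limit was -0.58 without control 4N experiment 1 and -0.17 without knockdown 2N experiment 3, and the upper was 0.13 without knockdown 2N experiment 2 and 0.11 without knockdown 4N experiment 3. A knockdown call in 4N cells that was missed in 2N cells, as for Keap1 and Nfe2l2, is therefore not shown to differ between them.

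Beyond the 8 genes, 4 lists of related genes were counted. Of 11 measured regulators and partners of Nrf2, 2 were higher and 1 lower in 4N cells, 3 higher and 1 lower in 2N cells, and 1 higher and 0 lower in 3N cells. The shares higher were 18.2%, 27.3% and 9.09%, against 9.83%, 10.9% and 6.46% of all genes, and rest on 1 to 3 genes. The small Maf partner Maff fell by 0.62 on the log2 scale in 4N (adjusted p = 0.00154) and by 0.45 in 2N cells (0.00927), with -0.17 in 3N cells (0.404). Nfe2l1, the related factor Nrf1, rose by 0.39 in 4N (0.00937) and 0.30 in 2N cells (0.0311), with 0.0014 in 3N cells (0.996). Gsk3b, a kinase that marks Nrf2 for degradation, rose by 0.35 in both classes (0.0259 and 0.0226) and by 0.41 in 3N cells (0.0299), and Btrc, the ubiquitin ligase adaptor that acts after it, rose by 0.45 in 2N cells (0.0246), with 0.09 in 4N (0.681) and 0.14 in 3N cells (0.628). Bach1, named for its role at Hmox1 after its value was seen, had a log2 change of -0.11 in 4N cells (adjusted p = 0.536). This value covers RNA in 4N cells alone, and a part of Bach1 in the rise of Hmox1 was not tested.

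Of 18 measured other reported Nrf2 targets, 1 was higher and 1 lower in 4N cells, 1 and 0 in 2N, and 1 and 1 in 3N cells, with median changes of -0.04, 0.03 and -0.01. Ephx1, microsomal epoxide hydrolase, rose by 0.65, 0.54 and 0.65 on the log2 scale in 4N, 2N and 3N cells (adjusted p = 0.000860, 0.00262 and 0.00280). Tkt, transketolase of the pentose phosphate pathway, fell by 0.43 in 4N (0.0391) and by 0.72 in 3N cells (0.0111), with -0.39 in 2N cells (0.0519). The other 16 passed in none of the 3 classes, and these counts are below the shares of all genes called given above.

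Of 29 measured other antioxidant enzymes, 4 were higher and 4 lower in 4N cells, again 4 and 4 in 2N, and 2 and 0 in 3N cells. A count of 4 is 13.8% of the list, near the 9.27% to 10.9% of all genes called in either direction in these classes, and 2 is 6.90%, near 6.46%. Gpx7, an endoplasmic reticulum peroxidase, rose by 1.20, 0.96 and 1.17 in 4N, 2N and 3N cells (adjusted p = 0.000458, 0.00178 and 0.00129), and Msrb1, a selenium-containing methionine sulfoxide reductase, by 0.74, 0.75 and 1.15 (0.00690, 0.00550 and 0.000931). Mgst1, a microsomal glutathione transferase, rose by 1.17 in 4N (0.00226) and 0.71 in 2N cells (0.0294), with 0.62 in 3N cells (0.154). The mitochondrial enzyme Msrb2 fell by 0.81 in 4N cells (0.00320), with -0.44 in 2N (0.0567) and -0.11 in 3N cells (0.812). Its mean log2 signal in knockdown 4N cells was 5.87, with detection on 2 of 3 arrays. The size of that fall therefore rests on values near the limit of detection. The other calls, named after their values were seen, were Prdx4 (higher) and Txnrd2, Glrx2 and Mgst3 (lower) in 4N cells, and Prdx2 (higher) and Prdx3, Txnrd2, Glrx2 and Mgst3 (lower) in 2N cells.

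Of 15 measured genes of heme and iron handling, 1 was higher and 0 lower in 4N and in 2N cells, and 2 were higher in 3N cells. These are 6.67%, 6.67% and 13.3% of the list, against 9.83%, 10.9% and 6.46% of all genes called higher. Slc40a1, which encodes the iron exporter ferroportin, rose by 2.18, 1.73 and 2.17 on the log2 scale in 4N, 2N and 3N cells (adjusted p = 0.000293, 0.00130 and 0.000919). Its log2 signal was 5.79 at the lowest, 6.61 at the median and 7.45 at the highest of the 8 control arrays, and 8.46, 8.59 and 8.91 on the 8 knockdown arrays, which do not overlap. Aco1, an iron-regulated aconitase named after its value was seen, was the other call in 3N cells (0.63, adjusted p = 0.0153). Hmox1 and Slc40a1 thus both rose in each DNA content class, while the remaining heme and iron genes passed in 0 of the classes other than Aco1 in 3N cells.

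**Figure D4:**
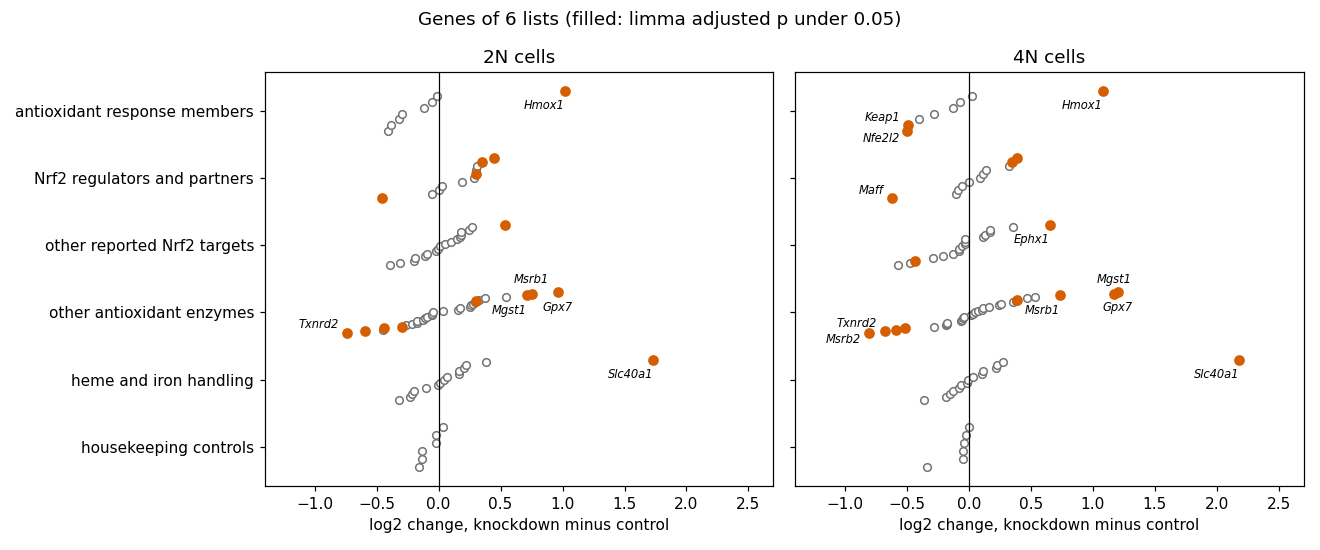
Log2 change, knockdown minus control (x axis), of the measured genes of 6 lists (y axis, 1 point per gene, ordered by value within a list) in 2N and 4N cells; filled points passed an adjusted p of 0.05. Hmox1 stands apart from the other 7 genes of its list, Slc40a1 from the other 14 heme and iron genes, and no housekeeping gene is filled.

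The genes whose log2 values were most like those of Hmox1 over the 16 arrays were Rab3il1 (r = 0.976), Ccn5 (0.968) and Ube4b (0.968), among 9306 genes. The arrays fall into a control and a knockdown set, so a gene that moves with the siRNA has a high value by that alone. Within the 8 control arrays r was 0.42, 0.34 and 0.35, and within the 8 knockdown arrays 0.83, 0.82 and 0.76. Ccn5 was detected on 0 of 8 control arrays and 8 of 8 knockdown arrays, so it was kept through the knockdown arrays. Its r of 0.34 within the control arrays describes signal below detection.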

How the data were processed

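RNA of 16 sorted cell samples was hybridised to 1 array each. Each array was read into GenomeStudio, and the mean intensity of every probe was deposited on a linear scale, not normalized. Beside it a detection value was deposited as a fraction, 1 minus the detection p. The authors' processed intensity is quantile normalized over the 16 arrays. The sources used here name no genome build for the probes.

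From the deposited signals, background was corrected by normexp with the detection values (limma 3.58.1 in R 4.3.3, offset 16), log2 was taken and arrays were quantile normalized. Kept were probes detected (p under 0.05) on 3 or more arrays, and the brightest stood for a gene. The comparisons of 2N and 4N cells came from a limma fit of 4 groups on 12 arrays (9146 genes), those with 3N cells from 6 groups on 16 arrays (9306 genes). No sample was imputed. The number of arrays limits the precision.

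Samples that share an experiment number deviated together (18 pairs, r from 0.0227 to 0.464, against -0.300 to 0.143 for 36 pairs of different experiments), and the labels number the experiments, so values with the experiment as a replicate block are given where they change a call. Named beside the members were from each list the most changed genes, at most 4, that passed in 2N or 4N cells, Foxo1, and the 3 genes most like a member called in both. Members and lists were chosen with earlier results of these data known. Alternatives were the background correction, median scaling, the authors' values, the detection filter, each probe alone, all arrays in the fit, the replicate block, the methods' analysis of variance and leaving out each array.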

Additional observations from a re-analysis of the deposited data

Results flagged for a closer look

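The log2 change of Gclm after knockdown was -0.116 in 2N cells, lower in 3 of 3 experiments, and 0.0431 in 3N cells, higher in 2 of 2, which drew attention because the signs were opposite. The 3N difference was 0.0077 in experiment 2. With median scaling both changes were negative (-0.25 in 2N and -0.031 in 3N cells), and on leaving out 1 array the 3N change ran from -0.21 to 0.30. The difference between 2N and 3N cells was not tested, and neither change passed the test.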

How the results depend on the processing

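Hmox1 passed in 2N, 3N and 4N cells under every alternative run and every array left out, with log2 changes from 0.78 to 1.24. With the experiment as a replicate block, 4 members passed in 2N cells in place of 1, and with median scaling 5 (Hmox1, Nqo1, Srxn1, Nfe2l2 and Keap1). Under that scaling the median log2 change of all genes in 2N cells was -0.11 in place of -0.01, and 34.9% of called genes were higher in place of 51.2%. In 3N cells 1 member passed in place of 2 with median scaling, with no detection filter and with every probe tested. Leaving out 1 array gave 1 to 2 members in 2N cells and 1 to 1 in 3N cells. Median scaling turned Gclm to -0.035 in 4N and -0.031 in 3N cells. On leaving out 1 array some uncalled changes turned sign: Gclc in 2N cells ran from -0.25 to 0.063, Gclm from -0.047 to 0.11 in 4N and from -0.21 to 0.30 in 3N cells, Srxn1 in 4N cells from -0.21 to 0.043, and Txnrd1 from -0.46 to 0.17 in 4N, -0.21 to 0.29 in 2N and -0.39 to 0.31 in 3N cells. The cause of these shifts was not tested. A test over the 4 groups of 2N and 4N cells passed Hmox1, Keap1 and Nfe2l2 with limma's F test, and the methods' analysis of variance passed Hmox1 and Keap1. The replicate block changed no other member's call. Over all genes it raised the calls from 439 to 772 and from 488 to 811 for 4N against 2N (control, knockdown), from 448 to 788 and 568 to 1021 for 3N against 2N, from 71 to 197 and 91 to 191 for 4N against 3N, and from 1203 to 1852 for the knockdown in 3N cells. For 4N against 3N median scaling gave 45 and 58, and in control cells the authors' values and uncorrected background each gave 113.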
